A study of Homo sapiens with 7 samples.

Results

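The genes examined here encode the proteins of the U1 snRNP and the Sm ring, and they are SNRNP70, SNRPA, SNRPC, SNRPB, SNRPB2, SNRPD1, SNRPD2, SNRPD3, SNRPE and SNRPF. They were taken by gene symbol from the tables of counts, with no filter on measured values. The list itself was chosen with earlier results of these data known. All 10 genes were present among the 16044 genes with a sense polyadenylation site (PAS) in any table. The cells were HEK293, a line of human embryonic kidney cells, transfected with a control siRNA (siCtrl) or with siRNA against Star-PAP, PAPα, PAPγ or PAPα together with PAPγ. RNA 3′ ends were sequenced with 3′READS in siCtrl, siStar-PAP, siPAPα and siPAPγ libraries of batch 1, and the siPAPα + siPAPγ library, also 3′READS, is set against the same siCtrl library, while siCtrl and siStar-PAP of batch 2 were made with 3′READS+. With 1 library per condition and batch, only siCtrl and siStar-PAP had 2 libraries, and their spread holds the change of protocol.

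The U1 snRNP marks 5′ splice sites by base pairing of its RNA, and it also keeps RNA polymerase II transcripts from being cleaved and polyadenylated early at sites within introns. U1-70K (SNRNP70), U1A (SNRPA) and U1C (SNRPC) belong to U1 alone, U2B″ (SNRPB2) is the relative of U1A in the U2 snRNP, and the Sm proteins B, D1, D2, D3, E and F form most of the ring that U1, U2, U4 and U5 share. U1A also binds a pair of boxes in the 3′UTR of its own mRNA, and from there it inhibits poly(A) polymerase, so that its PAS is a known case of control through the polymerase itself.

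The boxes and the PAS of SNRPA are shown first because that control rests on them. On hg19, the only listed PAS of SNRPA was at position 41271294 of chromosome 19, on the + strand, in the 3′UTR of the last of 6 exons and 222 bases after the stop codon, which is the annotated end of the gene. The letters ATTGNAC were searched on the strand of the RNA in the 100 bases before each PAS. SNRPA held 2 matches, which ended 80 and 54 bases before the PAS, with 19 bases between them, and capitals mark them in the first 2 lines (chr19:41271204-41271218 and chr19:41271230-41271244). In the last line (chr19:41271260-41271289) capitals mark the signal ATTAAA, which ended 29 bases before the PAS and began 19 bases after the second box.
SNRPA box 1: cagcATTGTACccag
SNRPA box 2: agacATTGCACctgg
SNRPA signal: ATTAAAgtggctttttgaggtttggttttt

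A pair of such matches was rare. Of 72453 positions of sense PASs in the tables, 2.65% held ATTGNAC in the same window, and 32 (0.0442%) held it 2 or more times. A site listed at slightly different positions in different tables counts more than once here. Among the 20 PAS positions listed for the 10 genes, the second PAS of SNRPE was the other with a match, a single ATTGCAC that ended 8 bases before the site. A match is a run of letters and not a measured binding site.

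The PASs most used in siCtrl of batch 1, and any other with at least 20% of the reads of its gene in a library, are shown next for the other 9 genes, since the values below rest on the reads at these sites. Each line gives the last 30 bases up to the PAS, or 30 bases from the signal where the signal lay farther away (SNRPE site 1), with the signal AATAAA or ATTAAA and the ATTGCAC of SNRPE in capitals.
SNRNP70 (chr19:49611830-49611859, +): tggatttaaaAATAAAattaatttcctgtt
SNRPC site 1 (chr6:34741542-34741571, +): aAATAAAattgtcaactctttcagttaaaa
SNRPB (chr20:2442288-2442317, −): ggtttatAATAAActcttaagagaacatta
SNRPB2 site 1 (chr20:16721827-16721856, +): ttaattttgtacAATAAActtttatttgta
SNRPB2 site 2 (chr20:16722392-16722421, +): gactgattAATAAAgagttgccagtgctaa
SNRPD1 site 1 (chr18:19209169-19209198, +): agtttttAATAAAcataaatgtgggacaga
SNRPD2 (chr19:46190718-46190747, −): gagaatAATAAAgctctgtgtttttttcta
SNRPD3 site 1 (chr22:24968073-24968102, +): agctaAATAAAtctggggggttttttgttc
SNRPE site 1 (chr1:203839180-203839209, +): AATAAAtactatgggattgtttgtattaaa
SNRPE site 2 (chr1:203839420-203839449, +): aAATAAAtaagagttATTGCACtaacaaaa
SNRPF site 1 (chr12:96259884-96259913, +): ctagacAATAAAgatttgtttgtttttcaa
SNRPF site 2 (chr12:96260206-96260235, +): gtataaaATTAAAcattttcttggtattaa

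In the 40 bases before the PAS, AATAAA was present at 15 of the 20 positions of these genes and at 45.2% of all positions of sense PASs. AATAAA or ATTAAA was present at 18 of 20 and at 60.9%. The sense PASs of all genes include sites in introns and upstream exons, and the comparison was not matched for place or use of the PAS. The positions without either signal are the second PASs of SNRPC and SNRPD3. The 20 positions stand for 18 sites, of which 13 had AATAAA and 16 had AATAAA or ATTAAA. All sites lay after the stop codon, from 64 bases (SNRPF) to 2994 bases (the third PAS of SNRPD3). The listed positions differed slightly between tables for SNRPB2 site 1 (16721865 and 16721856) and SNRPD1 site 1 (19209198 and 19209196), and each pair was treated as 1 site in all counts of reads.

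**Figure D1:**
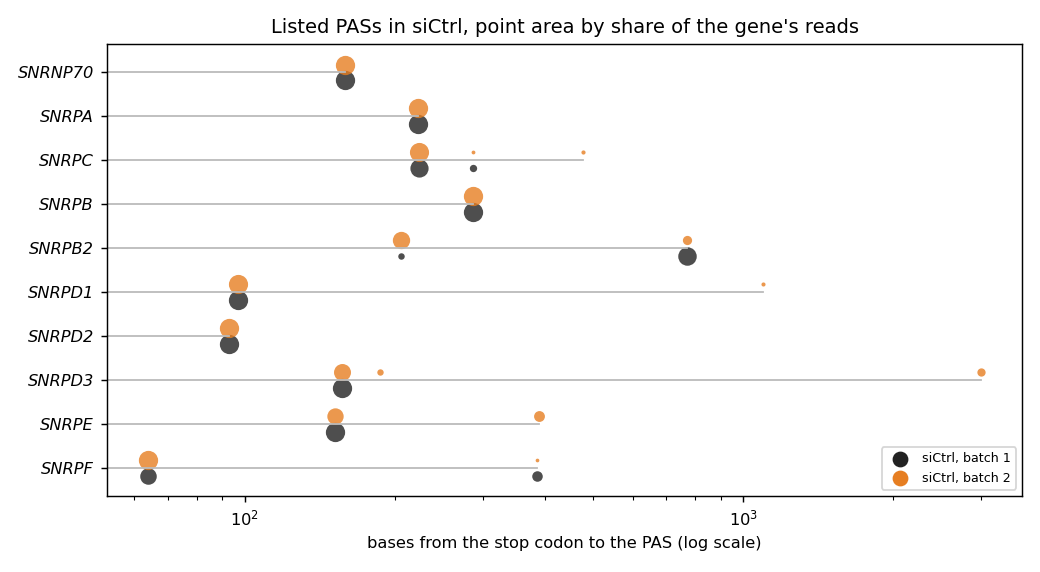
Distance of each listed PAS from the stop codon (x axis, bases, log scale) for the 10 genes (y axis), in siCtrl of batch 1 (black, as listed in the table of batch 1) and of batch 2 (orange), with the area of a point growing with the share of the reads of the gene. The first PAS held most reads in both libraries for every gene but SNRPB2, whose second PAS held 91.9% in batch 1 and 20.04% in batch 2.

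The tables held between 2347192 sense reads (siStar-PAP, batch 2) and 16191098 (siPAPα), of which 10927 to 53595 came from the 10 genes, and every gene had at least 116 reads in every library. TUT1, the gene of Star-PAP, had 83 reads in siCtrl and 2 in siStar-PAP of batch 1 but 6 and 4 in batch 2, which is too few for a check there. PAPOLA (PAPα) had 71 reads in siCtrl of batch 1, 12 in siPAPα and 8 in siPAPα + siPAPγ. In siStar-PAP of batch 1 PAPOLA had 44 reads, which is 42.8% of siCtrl after scaling for depth. In batch 2 it had 45 in siCtrl and 34 in siStar-PAP (89.8%). PAPOLG had 5 reads in siCtrl of batch 1, 15 in siPAPγ and 6 in siPAPα + siPAPγ, so that at this depth its mRNA gives no check of KD of PAPγ in either library, and both are named from their labels. The study itself checked the KD of the individual PAPs at the protein level by immunoblot. Of the markers of HEK293 cells, NEFL, NEFM and VIM had reads in every library, but NEFM had only 3 in siCtrl and 1 in siStar-PAP of batch 2. PAX2 had 0 to 14 reads, and PTPRC, ALB, CDH5 and HBB, which mark blood, liver and endothelial cells, were not listed in any table.

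Levels are given as RPM, the reads of a gene per 1000000 PASS reads of its library, where a PASS read is one that supports a PAS by untemplated Ts. A 3′READS read marks 1 RNA end, so RPM does not grow with the length of the mRNA. Levels of different genes are set side by side on that basis, and other differences in recovery between genes were not corrected. The order of the genes was not the same in the siCtrl libraries, with SNRPF at rank 8 in batch 1 and rank 5 in batch 2. Reads were not counted by molecule, so all intervals cover counting error alone. In bulk RNA, less RNA per cell and fewer cells that hold the RNA cannot be told apart.

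SNRPD3 had the highest level in siCtrl, with 1027 RPM in batch 1 and 1072 in batch 2, and the ranges of its 2 libraries lay above those of every other gene. SNRPD1 (568 and 476 RPM) and SNRPD2 (598 and 423 RPM) followed, and their ranges overlapped. Next came SNRNP70, SNRPA, SNRPB2 and SNRPF, each of which overlapped the next in the order of the means, and then SNRPE (54.6 and 62.4 RPM). The lowest levels were those of SNRPC (25.6 and 47.9 RPM) and SNRPB (40.6 and 23.97 RPM), which overlapped.

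**Figure D2:**
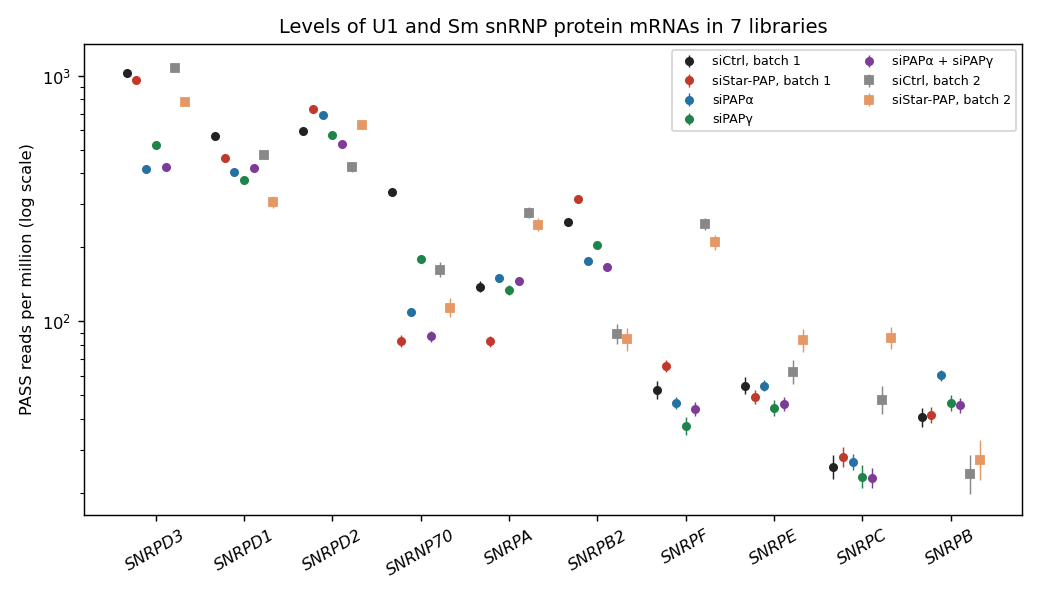
RPM (y axis, log scale) of each gene in the 7 libraries, ordered by the mean of the siCtrl libraries, with circles for 3′READS, squares for 3′READS+ and bars for the exact 95% Poisson interval of the count. SNRPF lies at 37.6 to 65.8 RPM in the 3′READS libraries and at 209 to 249 RPM in the 3′READS+ libraries, while SNRNP70 has its highest value, 335 RPM, in siCtrl of batch 1.

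For SNRPF, SNRPB2, SNRPA, SNRPC and SNRPB the level differed more between the 2 siCtrl libraries than between any KD library and the siCtrl library of its batch. SNRPF was 4.74-fold higher in siCtrl of batch 2 than in that of batch 1, SNRPB2 stood at 0.350 of its batch 1 level and SNRNP70 at 0.485 of it, and SNRPA at 2.00-fold its batch 1 level was just inside the 2-fold line. These 3 of 10 genes past 2-fold stand beside 61.1% of 9570 genes past 2-fold between the same libraries. Protocol and batch cannot be told apart here, and each ratio of a KD library to siCtrl was taken within its batch.

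For U1A, the level of SNRPA was 139 RPM in siCtrl and 82.8 RPM in siStar-PAP of batch 1, and 277 and 247 RPM in batch 2. It was 150 RPM in siPAPα, 134 in siPAPγ and 146 in siPAPα + siPAPγ. Both siStar-PAP libraries were lower than the siCtrl library of their batch, but the groups overlapped across batches, and the 3 libraries with KD of PAPα or PAPγ lay between 134 and 150 RPM.

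The log2 ratio of SNRPA to siCtrl was −0.74 (95% interval of counting error −0.85 to −0.64) in siStar-PAP of batch 1 and −0.16 (−0.28 to −0.05) in batch 2. It was 0.11 (0.03 to 0.20) in siPAPα, −0.05 (−0.14 to 0.05) in siPAPγ and 0.08 (−0.01 to 0.17) in siPAPα + siPAPγ. The median gene with more than 50 reads over the pair also shifted, by −0.45, −0.16, −0.26, −0.33 and −0.38 in the order siStar-PAP batch 1, siStar-PAP batch 2, siPAPα, siPAPγ and siPAPα + siPAPγ. Relative to that median, SNRPA stood at −0.30, −0.00, 0.37, 0.28 and 0.46, which placed it between the 36.3 and the 69.7 percentile of genes. The size of the shift of the median gene depends on the scaling. Scaled by the listed sense reads in place of PASS reads, it was −0.38, −0.18, −0.13, −0.06 and −0.11 in the same order. Listed sense reads were 70.5% of PASS reads in siCtrl of batch 1, 58.6% in siPAPγ and 57.9% in siPAPα + siPAPγ. Values relative to the median were the same with either scaling.

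No second PAS of SNRPA was listed in any of the 7 libraries, over 1050 to 3759 reads, so that PAS choice within this gene could not be compared. The study filtered PASs by abundance, so a rarer site may not be listed.

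The genes whose ratios were most like those of SNRPA, by the smallest of the largest gaps in the log2 ratio over the 5 comparisons among 3749 genes with at least 50 reads in every library, were CPSF6, ARF1 and ABL2. CPSF6, a subunit of cleavage factor I, the complex that binds UGUA elements before a PAS, stayed within 0.08 of SNRPA in every comparison. The gap was 0.11 for ARF1, a small GTPase of Golgi traffic, and 0.18 for ABL2, a tyrosine kinase. The comparisons of batch 1 and of the double KD share 1 siCtrl library, so these ratios are not independent of each other.

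For U1-70K, SNRNP70 gave 335 RPM in siCtrl and 83.1 RPM in siStar-PAP of batch 1, 109 in siPAPα, 179 in siPAPγ and 86.8 in siPAPα + siPAPγ. In batch 2 it gave 162 RPM in siCtrl and 114 in siStar-PAP. All 5 KD libraries lay below the siCtrl library they were set against, and both siStar-PAP libraries lay below both siCtrl libraries. The comparisons of batch 1 and of the double KD use the same siCtrl library, whose 335 RPM was the highest value of this gene. They are thus not independent of each other. With 162 RPM, siCtrl of batch 2 lay within the range of the KD libraries and below siPAPγ (179 RPM).

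The level of SNRNP70 in siStar-PAP of batch 1 was 24.8% of siCtrl, a log2 ratio of −2.01 (−2.10 to −1.92), or −1.56 relative to the median gene. In batch 2 it was 70.0% of siCtrl, and relative to the median gene −0.35. Relative to the median, the log2 ratio was −1.36 in siPAPα, −0.57 in siPAPγ and −1.56 in siPAPα + siPAPγ. It was the lowest of the 10 genes in siStar-PAP of batch 1, siPAPα and siPAPα + siPAPγ.

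For U1C, SNRPC gave 25.6 RPM in siCtrl and 28.0 in siStar-PAP of batch 1, 47.9 and 85.4 in batch 2, 26.8 in siPAPα, 23.3 in siPAPγ and 23.1 in siPAPα + siPAPγ. The siStar-PAP library was the higher of its pair in both batches, with log2 ratios of 0.13 (−0.08 to 0.35) and 0.83 (0.59 to 1.07), the former within its counting error. The groups overlapped.

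Among the Sm genes, SNRPD3 was low in the libraries with KD of PAPα or PAPγ. It gave 415 RPM in siPAPα, 523 in siPAPγ and 425 in siPAPα + siPAPγ against 1027 in siCtrl, and 957 in siStar-PAP of batch 1, while in batch 2 siCtrl had 1072 and siStar-PAP 784 RPM. Relative to the median gene, its log2 ratio was −1.05, −0.64 and −0.91 in siPAPα, siPAPγ and siPAPα + siPAPγ, and 0.34 and −0.29 in siStar-PAP of batches 1 and 2.

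SNRPD1, the partner of D2 in ring assembly, gave 568 RPM in siCtrl and 461 in siStar-PAP of batch 1, 406 in siPAPα, 374 in siPAPγ and 421 in siPAPα + siPAPγ, and in batch 2 476 in siCtrl and 306 in siStar-PAP. SNRPD2 gave 598, 730, 691, 571 and 527 RPM in the same order, and 423 and 630 RPM in batch 2. The D1 and D2 proteins form a dimer, and the 2 mRNAs differed in direction in siStar-PAP: SNRPD1 was the lower and SNRPD2 the higher of the pair in both batches on the RPM scale. Relative to the median gene SNRPD1 stood at 0.14 and −0.47, so that its direction was not the same in the 2 batches, and SNRPD2 at 0.73 and 0.74.

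SNRPB, whose protein pairs with D3, gave 40.6 RPM in siCtrl and 41.5 in siStar-PAP of batch 1, 60.4 in siPAPα, 46.4 in siPAPγ and 45.4 in siPAPα + siPAPγ, and 23.97 and 27.3 in batch 2, where 121 and 116 reads give it wide intervals (19.9 to 28.6 and 22.6 to 32.7 RPM). SNRPB lay above the median gene in all 5 comparisons, by 0.35 to 0.83, where SNRPD3 lay below it in 4 of 5. SNRPB, SNRPC, SNRPD2 and SNRPE were the 4 genes above the median in all 5 comparisons, and SNRNP70 was below it in all 5. Apart from siStar-PAP of batch 2, these comparisons share the same siCtrl library.

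SNRPE and SNRPF, whose proteins form a subcomplex with SmG, ranged from 44.4 to 83.5 RPM and from 37.6 to 249 RPM. SNRPE gave 54.6 RPM in siCtrl and 49.2 in siStar-PAP of batch 1, 62.4 and 83.5 in batch 2, and 54.7, 44.4 and 46.1 in siPAPα, siPAPγ and siPAPα + siPAPγ. SNRPF gave 52.5 and 65.8 RPM in batch 1, 249 and 209 in batch 2, and 46.4, 37.6 and 44.01 in siPAPα, siPAPγ and siPAPα + siPAPγ. For both genes siStar-PAP differed in direction between the batches on the RPM scale.

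SNRPB2, of the U2 snRNP, gave 254 RPM in siCtrl and 313 in siStar-PAP of batch 1, 88.9 and 84.5 in batch 2, 177 in siPAPα, 204 in siPAPγ and 166 in siPAPα + siPAPγ. It was thus lower than siCtrl in the 3 libraries with KD of PAPα or PAPγ, with log2 ratios of −0.52, −0.31 and −0.61, which were −0.27, 0.02 and −0.23 relative to the median gene.

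**Figure D3:**
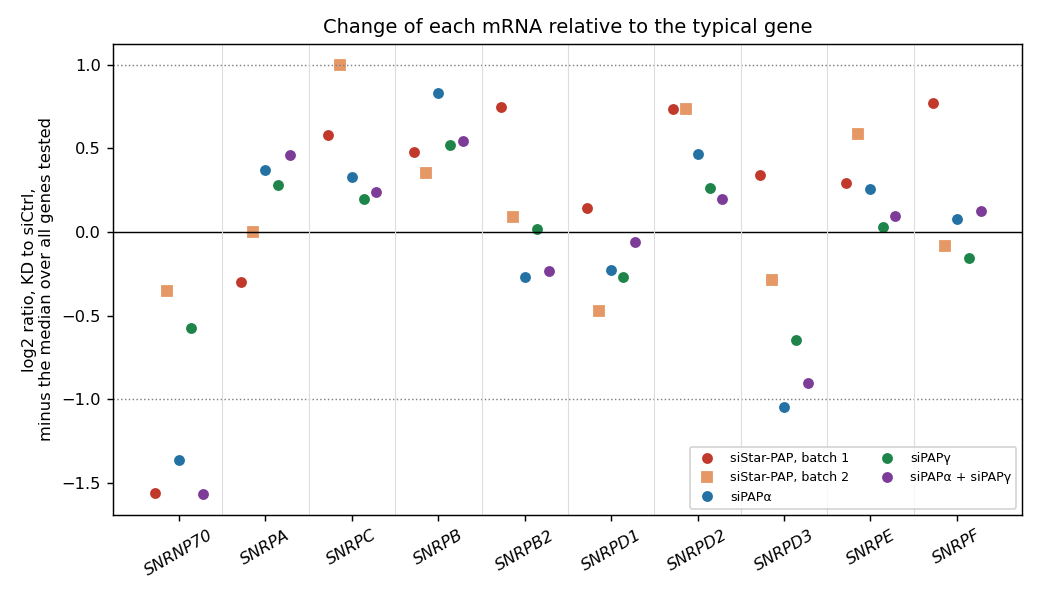
Log2 ratio of RPM in each KD to the siCtrl library of its batch, minus the median over all genes tested in that comparison (y axis), for the 10 genes, with dotted lines at a 2-fold difference. SNRNP70 lies below 0 in every comparison, SNRPD3 has its own lowest value, −1.05, in siPAPα, and SNRPA lies between −0.30 and 0.46. All comparisons but that of batch 2 share the same siCtrl library.

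Past 2-fold on the RPM scale, 1 of the 10 genes was down in siStar-PAP of batch 1 (SNRNP70), where 26.2% of genes were down and 30.6% were past 2-fold either way. None was past 2-fold in siStar-PAP of batch 2 (15.2% of genes either way). Both siPAPα (22.1% of genes down, 30.6% either way) and siPAPα + siPAPγ (26.5% and 33.5%) had SNRNP70 and SNRPD3 down, and siPAPγ had none past 2-fold (26.4% either way). No gene of the 10 was up past 2-fold in any comparison. None of these counts exceeds the share of all genes, and they are no result about the 10 genes as a group.

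For siStar-PAP, both libraries lay below both siCtrl libraries for 3 of the 10 genes (SNRNP70, SNRPD1 and SNRPD3), which 18.1% of 6542 genes did, and above both for SNRPD2, which 4.19% did. The edgeR quasi-likelihood fit over the 4 libraries, with batch as a block, left 1 residual degree of freedom. It called 274 of 11878 genes (2.31%) at an adjusted p below 0.05, and none of the 10. At an unadjusted p below 0.05, where 15.0% of genes stood, it had 3 of the 10, namely SNRNP70 (log2 change −0.92 ± 0.36 SE, adjusted p = 0.208), SNRPC (0.83 ± 0.33, adjusted p = 0.226) and SNRPD2 (0.78 ± 0.34, adjusted p = 0.276). DESeq2 also called none. Of the 10 estimates, 7 were above 0, with a median of 0.43 where the median over all genes was −0.00. By batch, the median log2 ratio of the 10 lay 0.41 above that of all genes in batch 1 (8 of 10 above) and 0.04 above it in batch 2 (5 of 10 above). The medians over all genes, here and above, were not matched to the 10 genes for level. The study reports that genes of low level were more often down in siStar-PAP.

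For SNRPA the estimate was −0.10 ± 0.33 with an adjusted p of 0.927, and the other 6 estimates lay between −0.12 (SNRPD1) and 0.48 (SNRPE). Estimates of this precision do not show that a level was the same. The value of SNRNP70 rests more on batch 1 (−1.56 relative to the median gene) than on batch 2 (−0.35).

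KD of PAPα or PAPγ has 1 library each. A fit over all 7 libraries, again with batch as a block, assumes that these libraries vary as the siCtrl and siStar-PAP pairs do. Its reference is a fitted siCtrl level of batch 1, to which the batch 2 libraries also contribute. Its estimates differ from the ratios within batch 1. For SNRNP70 in siPAPα that ratio was −1.36 relative to the median gene, and the fit gave −0.96. The edgeR test called 5.73% of 13771 genes in siPAPα, 2.37% in siPAPγ and 7.10% in siPAPα + siPAPγ, and none of the 10 genes in any of them. At an unadjusted p below 0.05 there were 3 of the 10 in siPAPα (SNRNP70, SNRPB and SNRPD3; 16.5% of genes), 0 in siPAPγ (11.7%) and 1 in siPAPα + siPAPγ (SNRNP70; 18.9%). DESeq2 called none of the 10 either. SNRNP70 stood at −0.96 ± 0.44 in siPAPα (adjusted p = 0.224), −0.24 ± 0.43 in siPAPγ (adjusted p = 0.949) and −1.16 ± 0.45 in siPAPα + siPAPγ (adjusted p = 0.0951). SNRPD3 stood at −1.09 ± 0.48 (adjusted p = 0.202), −0.75 ± 0.48 (adjusted p = 0.634) and −0.92 ± 0.48 (adjusted p = 0.282). SNRPA stood at 0.57 ± 0.43, 0.42 ± 0.43 and 0.67 ± 0.43, with adjusted p of 0.589, 0.867 and 0.426.

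**Figure D4:**
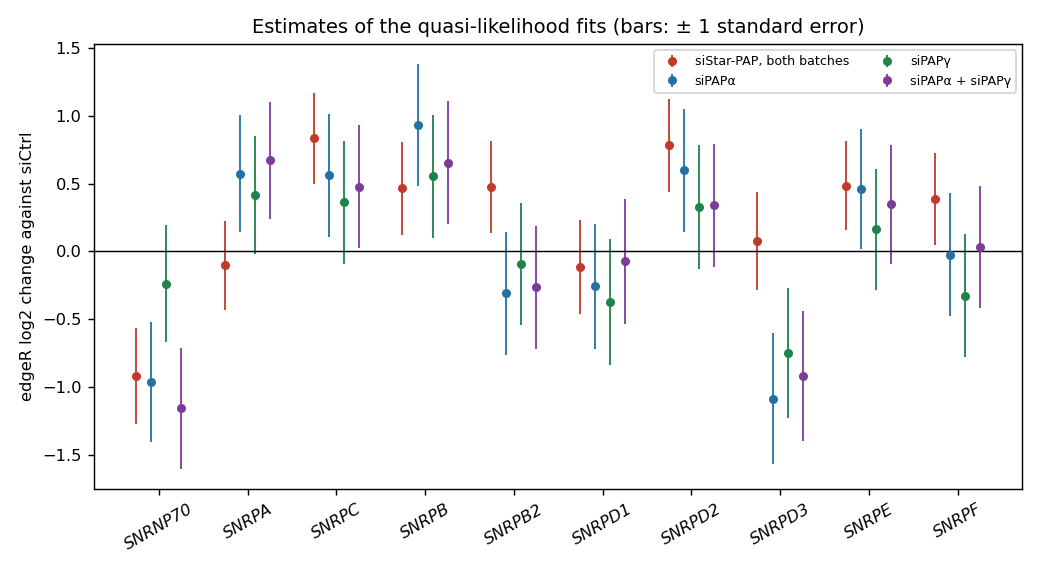
Log2 change against siCtrl (y axis) of each gene in the edgeR fits, with bars of 1 standard error, for siStar-PAP over both batches (4 libraries) and for siPAPα, siPAPγ and both together (7 libraries). No estimate passed an adjusted p of 0.05, and the lowest are those of SNRNP70 and SNRPD3.

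All PASs of the 10 genes are assigned to last exons in the tables, although the third PAS of SNRPC and the second of SNRPF lie 190 and 317 bases past the annotated end of that exon. No PAS in an intron or in another exon upstream, and no antisense PAS near the promoter, was listed for any of them in any table, over 10927 to 53595 reads per library. The study filtered PASs by abundance, so these reads do not set how rare an unlisted site is. The table of batch 1 did not list the second PAS of SNRPD3. That site had 95 reads for the same siCtrl library in the table with the double KD. Genes with at least as many reads as the lowest of the 10 had a PAS upstream of the last exon in 12.3% of cases in the table of batch 1, 23.7% in the table with the double KD and 23.8% in the batch 2 table. The tables listed 13, 17 and 18 PASs for the 10 genes, and SNRNP70, SNRPA, SNRPB and SNRPD2 had a single PAS in all 3 tables.

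A change in the use of a PAS was called where its share of the sense reads of the gene differed by at least 10 percentage points and Fisher's exact test (two-sided, Benjamini-Hochberg adjustment over all PASs tested) gave an adjusted p below 0.05. This test compares 2 libraries and not 2 conditions. It could be run for 3 of the 10 genes in siStar-PAP of batch 1, siPAPα and siPAPγ, and for 6 in siStar-PAP of batch 2 and in siPAPα + siPAPγ. One gene was called, SNRPE in siStar-PAP of batch 2, where 17.7% of 3042 genes were. None was called in siStar-PAP of batch 1 (51.2% of genes), siPAPα (53.8%), siPAPγ (44.4%) or siPAPα + siPAPγ (47.8%). With the Fisher test alone and no minimum change, 1 of 3 genes passed in siStar-PAP of batch 1 (76.0% of genes), siPAPα (78.8%) and siPAPγ (66.4%), 4 of 6 in siStar-PAP of batch 2 (26.4%) and 5 of 6 in siPAPα + siPAPγ (75.0%). Apart from that of SNRPE in siStar-PAP of batch 2, each of these changes was below 10 points.

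SNRPE used its second PAS, the site with the ATTGCAC shown above, for 29.2% of reads (95% interval 24.2 to 34.6, exact Clopper-Pearson) in siCtrl of batch 2 and for 16.1% (12.4 to 20.3) in siStar-PAP (adjusted p = 0.00148 by Fisher's exact test). The table of the double KD listed this site at 2.80% in siCtrl of batch 1 and 1.15% in siPAPα + siPAPγ, and the table of batch 1 did not list it. With 315 and 355 reads and 1 library each, the difference in batch 2 has no replicate.

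SNRPB2 used its second PAS, which gives a 3′UTR of 771 in place of 206 bases, for 91.9% of reads in siCtrl and 94.1% in siStar-PAP of batch 1, 82.8% in siPAPα, 88.0% in siPAPγ and 85.8% in siPAPα + siPAPγ. In batch 2 both siCtrl (20.04%) and siStar-PAP (20.06%) used it far less. The 3 libraries with KD of PAPα or PAPγ were lower than siCtrl by 9.08, 3.87 and 6.13 percentage points, each past an adjusted p of 0.05 by Fisher's exact test but below 10 points. Between the 2 siCtrl libraries the share differed by 71.9 points, and 20.4% of 3749 genes had a PAS that differed by at least 50 points between them.

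SNRPF used its second PAS for 27.3% of reads in siCtrl and 23.1% in siStar-PAP of batch 1, 32.4% in siPAPα, 29.9% in siPAPγ and 24.7% in siPAPα + siPAPγ, and for 0.159% and 1.91% in siCtrl and siStar-PAP of batch 2. It was the gene with the largest difference in level between the siCtrl libraries, and its first PAS held nearly all reads in the library where its level was higher. SNRPD3 had 3 listed PASs in batch 2, where the third, 2994 bases after the stop codon, held 15.4% of reads in siCtrl and 15.7% in siStar-PAP. The same PAS held 0.228% in siCtrl of batch 1 and 1.25% in siPAPα + siPAPγ.

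SNRPC used its second PAS for 11.3% of reads in siCtrl and 13.4% in siStar-PAP of batch 1, 10.5% in siPAPα, 8.41% in siPAPγ and 5.30% in siPAPα + siPAPγ, and for 0.413% and 0.551% in siCtrl and siStar-PAP of batch 2. SNRPD1 used its second PAS, 1096 bases after the stop codon, for 1.04% of reads in siCtrl and 2.84% in siStar-PAP of batch 2, and for 0.720% in siCtrl of batch 1 and 2.68% in siPAPα + siPAPγ. In both pairs the KD library was the higher and the intervals did not overlap (0.674 to 1.53% and 2.01 to 3.90% in batch 2).

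**Figure D5:**
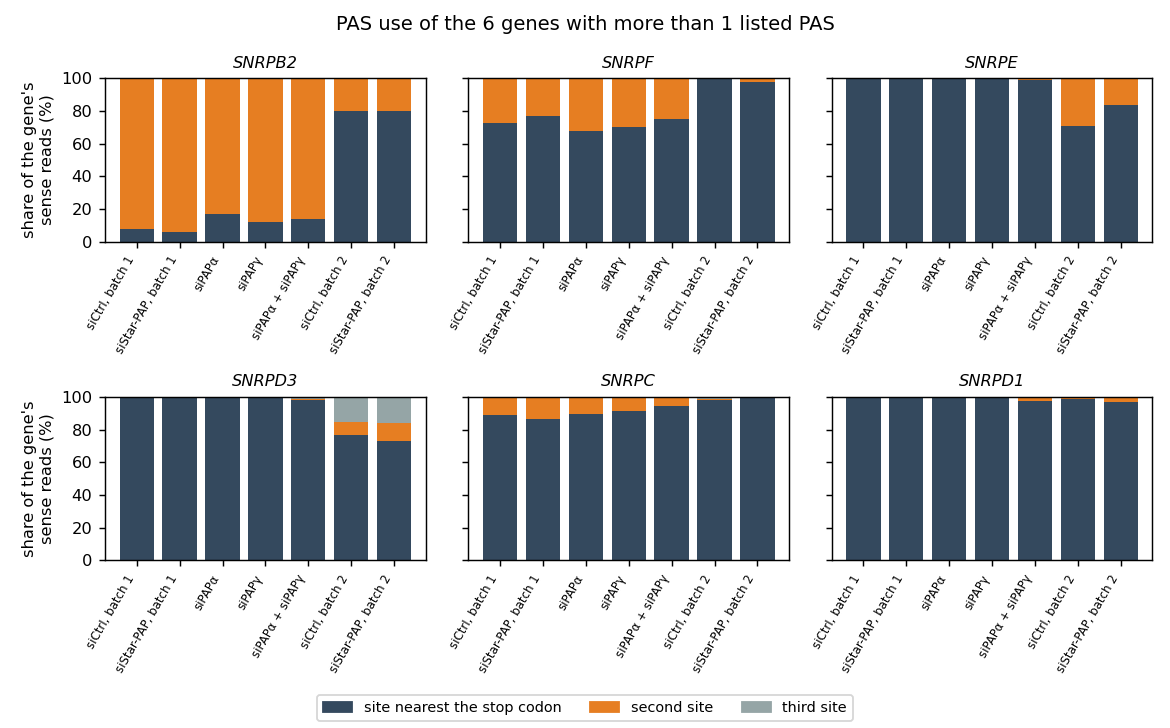
Share of the sense reads of a gene (y axis, %) at its listed PASs, in order from the stop codon, in each library, for the 6 genes with more than 1 listed PAS. The batch 2 libraries stand apart for SNRPB2, SNRPF, SNRPE, SNRPD3 and SNRPC, and the second PASs of SNRPE and SNRPD1 and the second and the third of SNRPD3 were not listed in the table used for the 4 libraries of batch 1.

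Genes of the other snRNPs and of snRNP assembly were counted from lists of known components. Among U1 partners, proteins that work with U1 at the 5′ splice site or in alternative splicing, 0 of 10 tested were called in siStar-PAP over both batches, and LUC7L2 (0.59 ± 0.35) and LUC7L (−0.55 ± 0.35) had the largest estimates among the 6 with at least 50 reads in each library. LUC7L3, named after its values were seen, had −1.45 ± 0.48 (adjusted p = 0.124) on 30 to 222 reads. In the 7-library fit 1 of 11 was called in siStar-PAP, which was LUC7L3 (−1.46 ± 0.44, adjusted p = 0.0340, and 0.160 by DESeq2), and 0 of 11 in siPAPα, siPAPγ and siPAPα + siPAPγ.

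Of the U2 snRNP genes, 1 of 12 tested was called in siStar-PAP, 1 of 13 in each of the other 3 contrasts, and it was SF3B14 in all 4. SF3B14 encodes p14, the SF3b protein that contacts the branch point adenosine, and it rose by 2.37 ± 0.34 in siStar-PAP (adjusted p = 0.00155, edgeR), 2.85 ± 0.44 in siPAPα, 2.63 ± 0.44 in siPAPγ and 2.64 ± 0.44 in siPAPα + siPAPγ on the log2 scale. Its level was 20.8 RPM in siCtrl and 71.6 in siStar-PAP of batch 1, 111 in siPAPα, 95.2 in siPAPγ and 87.4 in siPAPα + siPAPγ, and 31.7 and 151 RPM in siCtrl and siStar-PAP of batch 2. U2AF2, the large subunit of the factor that binds the polypyrimidine tract, had an estimate of 1.03 ± 0.33 in siStar-PAP (adjusted p = 0.117).

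Of the U4, U5 and U6 snRNP genes, 0 of 17 were called in siStar-PAP, where CD2BP2 (0.93 ± 0.37) and NHP2L1 (0.79 ± 0.35) had the largest estimates among those with at least 50 reads, and 1 of 17 in each of the other contrasts. That gene was SNRNP27, a protein of the tri-snRNP, named here after its values were seen. Its log2 change was −2.32 ± 0.50 in siPAPα (adjusted p = 0.000336), −2.43 ± 0.50 in siPAPγ (adjusted p = 0.000414) and −3.08 ± 0.52 in siPAPα + siPAPγ (adjusted p = 5.1e-07), with 130 RPM in siCtrl of batch 1 and 19.9, 18.4 and 10.7 RPM in these libraries. It had 74.9 RPM in siStar-PAP of batch 1, and in batch 2 it had 13.5 RPM in siCtrl and 9.41 in siStar-PAP, so that siCtrl of batch 2 lay at the level of these KD libraries.

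Of the snRNP assembly genes, those of the SMN complex and of the enzymes and carriers that prepare Sm proteins, 0 of 17 were called in siStar-PAP, siPAPα and siPAPγ, and PRMT7 and PRMT5 (the latter named after its values were seen), arginine methyltransferases that act on Sm proteins, rose in siPAPα + siPAPγ (1.81 ± 0.50 and 1.51 ± 0.48, adjusted p = 0.00763 and 0.0292, edgeR), of which PRMT5 was not called by DESeq2 (adjusted p = 0.117). In siStar-PAP the largest estimates among those with at least 50 reads were those of PRMT7 (0.98 ± 0.39) and GEMIN8 (−0.82 ± 0.43). The remaining Sm gene tested, SNRPG, was not called in any contrast and had 14 to 599 reads, and SNRPN was not listed.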

How the data were processed

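Bowtie2 was used by the authors to align the 3′READS reads (hg19), and uniquely aligned reads with untemplated Ts were kept and clustered into PASs. The deposited values are counts of PASS reads per PAS and were not normalized. Reads shared with near-identical copies, such as processed pseudogenes of Sm genes, are not in these counts, so levels of Sm genes are uncertain to that extent. The study states a minimum of 5% of the reads of a gene, but sites below it in every library of a table are listed, for example the second PAS of SNRPD1. All 7 libraries were mapped to a condition and 0 columns of values were left without one. The siPAPα + siPAPγ table repeats siCtrl of batch 1 and lists more PASs (47 more reads for SNRPD1, 122 for SNRPD3 and 18 for SNRPE).

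Sense counts were summed per gene and scaled to RPM by the PASS read totals of the study. Ratios were taken for genes with more than 50 reads over the pair. Tests were edgeR 4.0.16 (TMM, filterByExpr, batch as block, Benjamini-Hochberg) and Fisher's exact test per PAS for genes with at least 50 reads in each library and 2 or more PASs. The labels pair siCtrl and siStar-PAP by batch, and the deviations of the libraries of a batch from their group means correlated across 11289 genes at r = 0.878 (genes are not replicates). The siPAPα + siPAPγ library, whose labels give no batch, was set in batch 1. The study speaks of replicate cell samples, but no label ties a library to a culture. The p-values of edgeR and DESeq2 thus measure only the spread between these libraries after the batch block, which may be technical. Those of Fisher's exact test hold no spread between libraries and cover counting error alone. DESeq2 1.42.0 and other scalings were alternatives. The edgeR and PAS steps were tried on simulated counts, with a preset spread between libraries for edgeR and independent reads for the PAS shares. The spread of the real libraries was not part of these simulations, so they do not give error rates for these data. R 4.3.3 and Python 3.11.15 (numpy 2.4.6, pandas 2.3.3, scipy 1.17.1, matplotlib 3.10.9) were used.

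The members, gene lists and tests were chosen with earlier results of these data known. Genes named outside the 10 are the 3 targets, the 2 of each list with the largest estimate in siStar-PAP and at least 50 reads in each of the 4 libraries, and the 3 most like SNRPA. LUC7L3, SNRNP27, PRMT5 and SNRPG were named outside this rule, after their values were seen. No reference proteins were used here. Genomic sequence and annotation were GRCh37 (GENCODE v44lift37).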

Additional observations from a re-analysis of the deposited data

Results flagged for a closer look

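For 3 genes siStar-PAP went one way in batch 1 and the other way in batch 2 on the RPM scale, and for 2 genes the share of the first PAS did. The log2 ratio of SNRPB2 was 0.30 in batch 1 and −0.07 in batch 2, a difference of 0.38. That of SNRPF was 0.33 and −0.25, a difference of 0.58, and that of SNRPE was −0.15 and 0.42, a difference of −0.57. Relative to the median gene SNRPB2 (0.75 and 0.09) and SNRPE (0.30 and 0.58) were above 0 in both batches, and SNRPF (0.77 and −0.09) was not. The share of the first PAS of SNRPC changed by −2.06 percentage points in batch 1 and by 0.83 in batch 2 (a difference of −2.89), and that of SNRPF by 4.19 and −1.75 (a difference of 5.94). With 1 library per condition and batch these differences between batches were not tested.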

How the results depend on the processing

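None of the 10 genes was called by edgeR or DESeq2 in any setting, with RLE factors, with no filter on low counts, or with PASS read totals as library sizes. Without the replicate block 0 of the 10 genes were called in all 4 contrasts, as with it, but the number of all genes called in siStar-PAP went from 274 to 0 (at an unadjusted p below 0.05, 40 genes were down and 14 were up), in siPAPα from 789 to 0, in siPAPγ from 326 to 0 and in siPAPα + siPAPγ from 978 to 0. DESeq2 called 276 of 5277 genes in siStar-PAP. No filter gave 444 of 15484 genes and PASS read totals 90 of 11878.

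Past 2-fold, DESeq2 size factors gave 1 gene in siStar-PAP of batch 2 (SNRPC, 1.03 on the log2 scale), 1 in siPAPα and 1 in siPAPα + siPAPγ, and TMM factors 1 in siPAPα + siPAPγ, since SNRPD3 moved inside 2-fold. The count of genes with a changed PAS was 1, 4, 1, 1 and 5 in siStar-PAP of batch 1, siStar-PAP of batch 2, siPAPα, siPAPγ and siPAPα + siPAPγ with Fisher's exact test alone, and 0 in siStar-PAP of batch 2 with a minimum of 20 points. All other alternatives, among them 200 reads and PASs within 50 nt merged, kept these counts within 1.5 times. Depth limits SNRPB most in batch 2 (121 and 116 reads) and SNRPC in the other 5 libraries (292 to 673 reads).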
